A study of Mus musculus with 2 samples.

Results

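The cytosolic ribosomal protein genes are described here in the newborn mouse kidney, with and without exposure to maternal diabetes. They were chosen by name alone: symbols made of Rpl or Rps and a number, with a short ending where present (a, l, x, y or l1), together with Rplp0, Rplp1, Rplp2 and Rpsa. Pseudogenes and the Rps6k kinases were left out. The rule found 79 of the 8930 genes listed for both libraries, of which 48 encode proteins of the large subunit (Rpl) and 31 of the small subunit (Rps), and all 79 were listed in both libraries. Some genes of the ribosome fall outside the name rule. Rps3a1 was at 4127 CPM (UMIs scaled to a total of 1000000) in control and 4625 in exposed cells, Rpl36al at 520 and 506, and Fau, which encodes a small subunit protein fused to a ubiquitin-like protein, at 3612 and 3672.

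The control group was C57BL/6J whole kidney taken at postnatal day 2. The other group, labelled DM_Exp and maternal diabetes exposed, was whole kidney of C57BL/6J mice of the same age whose mothers were diabetic, and the design text names male mice. The sources used here do not give how the mothers became diabetic, and neither group is labelled with a transgene or a mutation. Each group was 1 library made from pooled cells of 1 kidney, so there was no replicate, no test was possible, and a difference between the libraries cannot be told apart from a difference between individual kidneys or preparations.

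The ribosome translates mRNA and is built from ribosomal RNA and a set of proteins that are needed in nearly equal number. Most of these proteins are encoded by single expressed genes, whose short mRNAs begin with a C and a run of pyrimidines, the 5′ terminal oligopyrimidine (TOP) tract, through which mTORC1 and Larp1 control their translation. Growing and proliferating cells, such as the progenitors that form nephrons until shortly after birth in the mouse, need many ribosomes.

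The annotated start sites were searched for the TOP tract, which was found in a minority of the members' windows. RefSeq promoter windows (GRCm38.p6) were matched for 59 of the 79 members, in 70 windows. The motif searched was a C followed by at least 4 letters that are each C or T, read on the strand of the gene. It began exactly at the annotated start in 18.6% of the members' windows and in 2.51% of all 32851 promoters. Within 5 bases of the start it was found in 44.3% of the members' windows and 18.3% of all promoters. A match is a description of the letters only. The windows below run 15 bases each way from the start and show 2 paralog pairs, whose levels are compared further on, and 3 members with a tract at the start. Capitals mark the tract nearest to the start.
Rpl22: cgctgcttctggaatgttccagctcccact
Rpl22l1: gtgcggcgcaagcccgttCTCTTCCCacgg
Rps27: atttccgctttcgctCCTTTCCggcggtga
Rps27l: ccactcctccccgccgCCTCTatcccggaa
Rps6: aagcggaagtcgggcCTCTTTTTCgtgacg
Rpl15: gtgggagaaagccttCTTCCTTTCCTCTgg
Rps18: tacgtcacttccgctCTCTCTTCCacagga
Rpl22 and Rps27l each have a second annotated start, and neither of those windows holds the tract. The Rpl22l1 window lies at chromosome 3, 28805493 to 28805522, on the plus strand, and the Rps27l window at chromosome 9, 66946071 to 66946100, on the plus strand.

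The libraries held 9071 control and 5494 exposed cells, with a median of 3523 and 4346 unique molecular identifiers (UMIs, each marking 1 captured transcript) per cell. The libraries share 14 cell barcodes. Mitochondrially encoded genes took 16.3% of the UMIs in control and 11.7% in exposed cells, and since every share and CPM is relative to a total, values without these genes are given beside the main ones. Cell classes are the authors' 10 clusters of each library, paired by the likeness of their profiles over genes other than the members and called by their markers. Names ending in "-like" are rebuilt from markers and may differ from the authors' own. Because these clusters were made from all genes, both libraries were also clustered together without the members. That gave 28 clusters, of which 25 held at least 20 cells in each library.

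Ribosomal protein mRNA made up 20.1% of control UMIs (7865567 of 39200142) and 21.6% of exposed UMIs (6097231 of 28213601). The difference was 1.55 percentage points (95% Newcombe interval 1.53 to 1.57, counting error only) and 0.514 points with the mitochondrial genes out of the total. In single cells the median share was 21.9% in the control, with quartiles of 12.9% and 27.2%, and 22.9% in the exposed library, with quartiles of 14.8% and 28.2%. The spread between cells within a library was therefore much wider than the difference between libraries.

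The share differed several-fold between cell types and was highest in nephron progenitors. Cluster 2, led by Cited1 and carrying Six2 and Eya1, which mark self-renewing nephron progenitors, was at 32.9% in control and 34.0% in exposed cells. Cluster 12, also nephron progenitor-like, was at 27.9% and 28.05%. These progenitor clusters differed in cell cycle genes, which summed to 1058 CPM in cluster 2 and 5891 CPM in cluster 12 of the control. In counts per cell the order was the other way: the median control cell held 1282.5 ribosomal protein UMIs of 3740.5 in cluster 2 and 1924 of 6957 in cluster 12. The more cycling cluster thus held more ribosomal protein UMIs per cell at a smaller share of a larger total. The stroma showed the same order, with 26.1% and 27.9% in cluster 1 (850 CPM of cell cycle genes in the control) and 23.5% and 23.8% in cluster 3 (7230 CPM). Some other cell types went the other way in the control. Endothelium-like cluster 4 was at 19.8% with 2611 CPM of cell cycle genes, and cluster 22 at 17.7% with 394 CPM. Ureteric bud and collecting duct-like cluster 15 was at 25.5% with 3115 CPM, and cluster 19 at 16.9% with 709 CPM. Differentiating nephron-like clusters 5 and 10 followed the stroma, at 24.8% with 5949 CPM and 25.4% with 1506 CPM.

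Along the nephron, clusters with markers of mature segments had the lower shares. Differentiating nephron-like cells were at 24.8% and 25.4% in cluster 5, led by Npy and Wnt4, and at 25.4% and 26.4% in cluster 10, led by Irx1. Proximal tubule-like cluster 6, led by Spp2, was at 11.9% in control and 13.1% in exposed cells. Proximal tubule-like cluster 21, led by Slc34a1, was at 3.07% and 1.54%, with mitochondrial genes at 71.8% and 76.1% of its UMIs. Slc12a1 cells, which carry the transporter of the thick ascending limb, were at 13.4% and 14.6% in cluster 7. Slc12a3 cells, which carry the transporter of the distal convoluted tubule, were at 5.91% and 5.27% in cluster 17. In the podocyte lineage, cluster 13 (Pcp4 and Wt1) was at 22.2% and 21.9%, and cluster 11, which carried Podxl and Nphs1 of mature podocytes, at 12.7% and 12.2%.

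The collecting system showed a similar range. Cells led by Rprm and carrying Ret and Wnt11, which mark the ureteric bud tip, were at 25.5% in both libraries (cluster 15). Collecting duct-like cells led by Aqp2 were at 16.9% and 17.8% (cluster 19), and intercalated cell-like cells, led by the proton pump gene Atp6v1g3, at 8.34% and 8.36% (cluster 20). Mitochondrial UMIs were high in some clusters of low share but not in all: they were 39.9% of control UMIs in cluster 17 and 23.2% in cluster 20, but 8.94% in podocyte-like cluster 11, close to the 8.55% of cluster 2. Without them cluster 17 was at 9.83%, cluster 11 at 13.95% and cluster 2 at 36.0% in the control. Endothelium-like cluster 4 was at 19.8% and 20.1%, and macrophage-like cluster 23 at 18.3% and 17.2%.

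**Figure D1:**
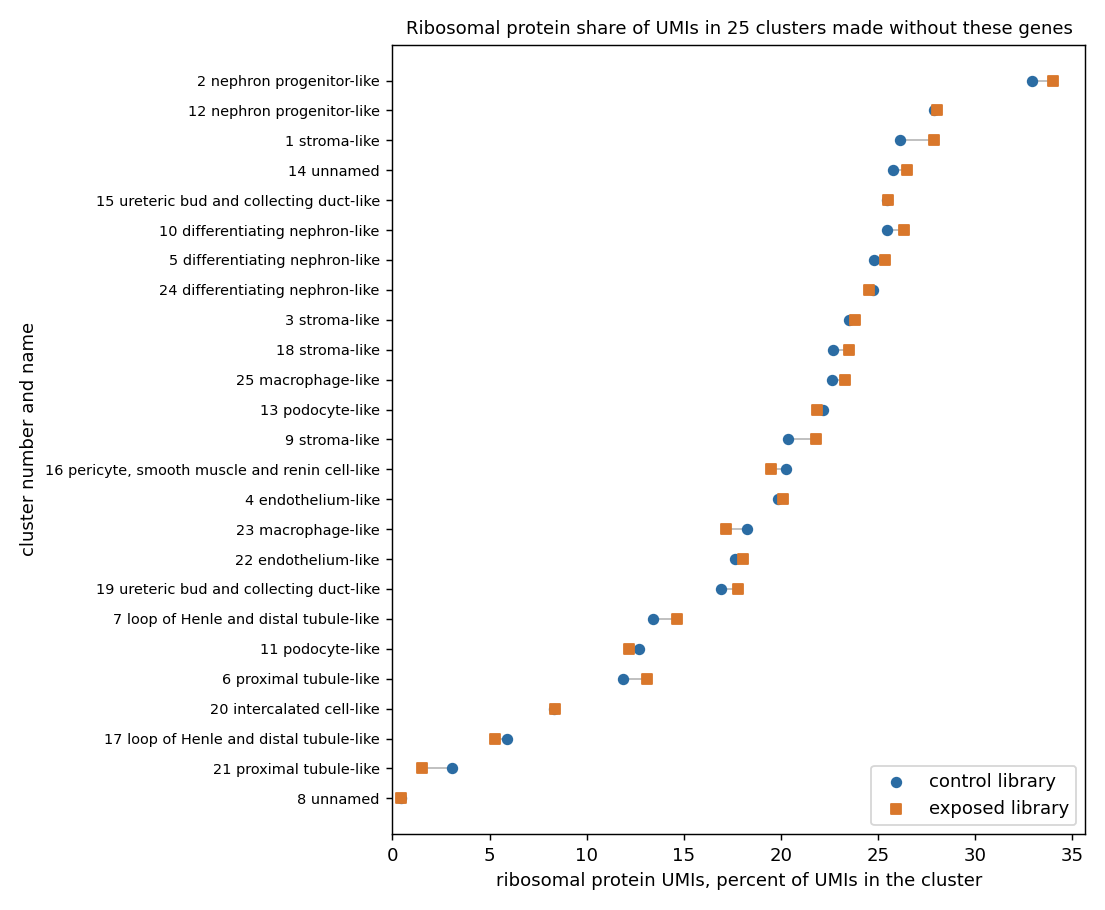
Ribosomal protein UMIs as a percent of all UMIs (x axis) in the 25 clusters (y axis, by number and name) made without these genes, for the control (circles) and exposed (squares) libraries. Cluster 2, led by Cited1, is highest at 32.9% and 34.0%, and the libraries lie close together in most clusters.

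The order of cell types was nearly the same in both libraries. Over the 25 clusters the control and exposed shares had a Pearson correlation of 0.996, a description over points that share the clustering. The exposed share was the higher one in 17 of 25 clusters, and in 9 of 25 without mitochondrial genes. Differences ran from -1.53 to 1.76 points with a median of 0.303. Without mitochondrial genes they ran from -4.46 to 1.67 points with a median of -0.125. The lowest of these was in proximal tubule-like cluster 21, at 10.9% in control and 6.44% in exposed cells without mitochondrial genes. With these genes in the total, its median cell was at 2.03% and 1.34%. That rests on a median of 39 and 35 ribosomal protein UMIs per cell. No common direction of difference was therefore seen once the mitochondrial UMIs were out of the total.

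Among the authors' classes the share was higher in the exposed library in 7 of 10. Nephrogenic lineage-like cells were at 25.1% in control and 27.1% in exposed cells, stroma-like cells at 24.0% and 24.7%, and endothelium-like cells at 19.3% and 19.8%. The nephrogenic class did not hold the same cells in both libraries: in the control 6.51% of it were Aqp2 cells of cluster 19 and 5.07% Slc12a1 cells of cluster 7, clusters of low share that each made up under 5% of the exposed class. Its difference was 1.97 points, against 1.07, 0.566, 0.902 and 0.185 points within clusters 2, 5, 10 and 12, its most frequent clusters. Podocyte-like cells were at 12.3% and 12.4%, proximal tubule-like cells at 11.7% and 12.2%, and macrophage and neutrophil-like cells at 17.7% and 16.4%. The endothelium-like and podocyte-like differences turned to -0.104 and -0.0613 points without mitochondrial genes. The mitochondria-rich proximal and distal tubule-like classes were at 3.39% and 1.81% in the control and tied at 2.47% in the exposed library. The last class, led by mitochondrial genes alone, was at 0.45% and 0.437%, and at 13.1% and 17.4% without mitochondrial genes, which were 96.6% and 97.5% of its UMIs.

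With mitochondrial genes in the total, the class that differed most between libraries was distal tubule and intercalated cell-like. It was at 7.85% in control and 12.1% in exposed cells, a difference of 4.23 points. Without mitochondrial genes the class led by these genes alone differed more, by 4.32 points, against 4.06 in the distal class. The 2 clusters behind the distal class did not hold the same cells. Aqp2 cells of cluster 19 made up 13.1% of the exposed class, and differentiating nephron-like cells of cluster 10 made up 5.88%. In the control, cluster 19 lay instead in the nephrogenic class, as given above. Slc12a3 cells, the lowest in ribosomal protein share of these, were 27.3% of the class in control and 13.6% in exposed cells. Within the finer clusters the exposed minus control differences were smaller: -0.635 points in cluster 17, 0.0199 in cluster 20 and 0.858 in cluster 19, with the 13.4% and 14.6% of cluster 7 given above. These values cover all cells of a cluster, of which only a part lay in the distal class. For cluster 17 that part was 137 of 266 control and 51 of 139 exposed cells. How far the cell makeup accounts for the difference in the class was not tested.

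Levels of single members spanned a wide range. A UMI marks the 3′ end of a transcript once, so CPM was not divided by transcript length. The most abundant were Rpl13 (6285 CPM in control and 6786 in exposed cells), Rps19 (5712 and 5862), Rplp0 (5347 and 6151), Rps24 (5393 and 5457) and Rps27a (4994 and 5288). Rps19 is the gene most often mutated in Diamond-Blackfan anaemia, and Rps27a encodes a fusion with ubiquitin. The least abundant were Rpl13a (75.8 and 81.1), Rpl7l1 (83.4 and 89.2), Rpl35 (104 and 120), Rpl10 (265 and 339) and Rpl23a (353 and 364). Many members have near-identical pseudogene copies, to which reads may be lost in counting, so a low level here is uncertain. Large subunit members held 55.4% of ribosomal protein UMIs in control and 55.3% in exposed cells.

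Between the libraries the members moved little. Ratios are log2 of exposed over control after adding 10 to both CPM values, for genes that reach 50 UMIs in all. Over all cells the members' median was 0.10, against 0.04 over all 8927 genes tested, and 0.02 against -0.02 without mitochondrial genes. Of the 79 members 68 were higher and 11 lower in the exposed library, where 65.5% of all genes tested were higher and 34.5% lower. A size of 0.32 on this log2 scale was set as the threshold. Only 2 members were past it in the higher direction, where 0.728% of all genes were, and 0 in the lower direction, where 0.795% were. No member was past it without mitochondrial genes, where 0.46% of all non-mitochondrial genes tested, members included, were higher and 1.22% lower by that much.

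The members past the threshold were Rpl10 and Rpl17. Rpl10, which joins the large subunit late in its assembly, was at 265 CPM in control and 339 CPM in exposed cells, a log2 ratio of 0.34 (ratio 1.28, 95% exact interval 1.24 to 1.31, counting error only). Rpl17, which lies at the exit tunnel for the new peptide, was at 1309 and 1652 CPM, a log2 ratio of 0.33 (ratio 1.262, 1.246 to 1.278). Rpl10 was higher in the exposed library in 23 of the 23 clusters where it was measured, and Rpl17 in 23 of 25. These counts keep mitochondrial genes in the total. All clusters come from the same 2 libraries, so the counts are not independent of each other. Next in the order were Rps6, the target of the S6 kinases, at 1008 and 1244 CPM (log2 ratio 0.30), Rpl7 at 2365 and 2839 CPM (0.26) and Rpl4 at 769 and 921 CPM (0.26). An Rpl10 pseudogene, Rpl10-ps3, was at 37.0 and 47.8 CPM.

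The lowest member was Rpl22l1, the paralog of Rpl22. It was at 1644 CPM in control and 1492 CPM in exposed cells, a log2 ratio of -0.14 (ratio 0.907, 0.896 to 0.919). It was lower in the exposed library in 9 of 10 classes and in 24 of 25 clusters, all read from the same 2 libraries. Rpl39, of the exit tunnel, was at 2649 and 2510 CPM (log2 ratio -0.08) and lower in 24 of 25 clusters. Rpl41, the shortest ribosomal protein, was at 3262 and 3151 CPM (-0.05) and lower in 23 of 25. Rps27l (461 and 449 CPM, -0.04) and Rpl36 (2143 and 2096 CPM, -0.03) came next. None of these differences reached the threshold over all cells.

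The log2 ratio of a member over all cells varied with its annotated transcript length. Some annotated lengths are large, such as 5179 nucleotides for Rps15a and 3706 for Rps20. Whether the annotated transcript is the one expressed here was not tested. Across the 79 members the Spearman correlation of log2 ratio with transcript length was 0.44, a description across genes of the same pair of libraries. The shortest 26 members, of 345 to 729 nucleotides, had a median log2 ratio of 0.03, the 26 of middle length 0.13 and the 27 longest 0.12. Among other genes with at least as many UMIs as the least abundant member the correlation was 0.13 (1690 genes), and over all other genes -0.19 (8422 genes). Library depth and mitochondrial share differed between the libraries as given above, and their part in this was not tested.

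**Figure D2:**
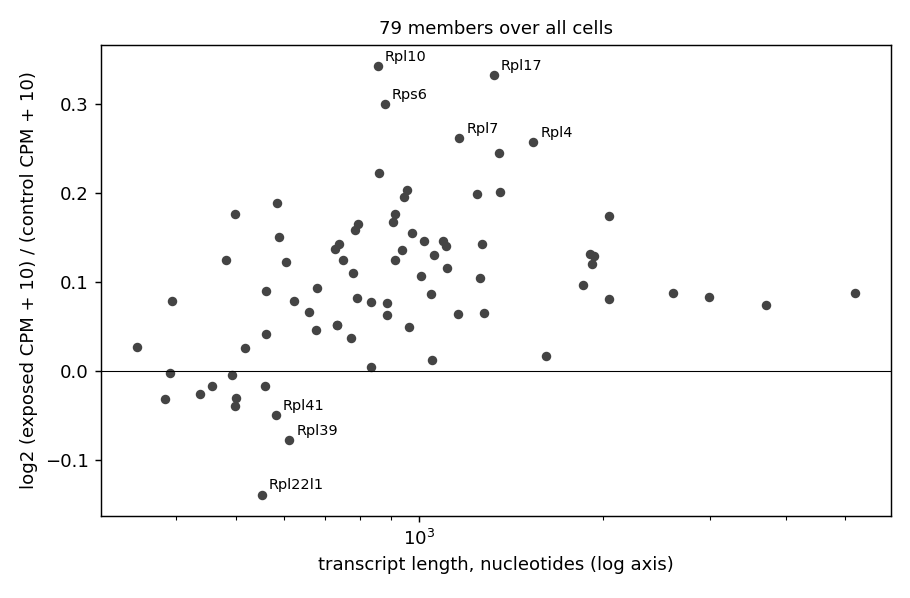
Log2 ratio of exposed over control CPM, with 10 added (y axis), against annotated transcript length on a log axis (x axis) for the 79 members over all cells, 1 point per gene. Rpl22l1, Rpl39 and Rpl41, all short, are lowest, and Rpl10 and Rpl17 are highest.

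Within most classes the picture was the same as over all cells. In nephrogenic lineage-like cells the members' median was 0.10 (all genes -0.01), and Rpl17 alone was past the threshold, at 1713 and 2165 CPM, a log2 ratio of 0.34 (1.82% of genes tested were past it in this direction). Within its clusters 2, 5, 10 and 12 the members' medians were 0.05, 0.03, 0.05 and 0.003. In stroma-like cells the median was 0.03 (all genes 0.01), with Rpl10 alone past it (342 and 434 CPM, 0.33; background 1.65%). In proximal tubule-like cells it was 0.05 (all genes 0.02), with Rpl10 alone past it (174 and 234 CPM, 0.41; background 7.24%). In podocyte-like cells it was 0.01 (all genes near 0), with Rpl17 alone past it (570 and 743 CPM, 0.38; background 8.49%). No member of these classes was lower past the threshold, where 4.72%, 1.98%, 7.05% and 9.7% of genes tested were, in the order given. Without mitochondrial genes no nephrogenic or stroma-like member was past it in either direction. Proximal tubule-like and podocyte-like cells then had 1 member each past it, in the higher direction. The medians were then 0.06, 0.004, 0.03 and -0.02 (all genes -0.04, -0.01, -0.0009 and -0.02), in the same order.

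Endothelium-like cells had 3 members past the threshold, where 6.74% of genes tested were, and 0 lower past it (5.15%). They were Rps6 (955 and 1238 CPM, log2 ratio 0.37), Rpl10 (258 and 330 CPM, 0.34) and Rpl13a (53.8 and 70.2 CPM, 0.33), and the Rpl13a value rests on 137 and 151 UMIs. The members' median there was 0.03 (all genes 0.03). Without mitochondrial genes it was -0.01 (all genes -0.003), with 1 member higher past the threshold and 0 lower. In macrophage and neutrophil-like cells most members were lower, 61 of 77 against 44.7% of all genes, with a median of -0.13 (all genes 0.05) and 0 members past the threshold in either direction (20.8% of all genes were higher and 12.5% lower by that much). This class mixes macrophages and neutrophils. Within macrophage-like clusters 23 and 25 the members' medians were -0.09 (all genes 0.03) and 0.02 (all genes 0.06). The neutrophil-like cluster 27 was at 10.2% ribosomal protein UMIs in 32 control cells and 2.83% in 13 exposed cells. The median neutrophil-like cell was at 4.23% in control and 2.73% in exposed cells, so the control value over all UMIs lay well above that of its typical cell.

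The 3 classes with medians furthest from 0 were the distal and the mitochondria-rich tubule-like ones. In distal tubule and intercalated cell-like cells 67 of 79 members were past the threshold in the higher direction, where 22.3% of all genes were, and 0 in the lower direction (3.37%), with a median of 0.61 (all genes 0.14). Without mitochondrial genes 58 were higher (12.5%) and 0 lower (8.83%), with a median of 0.46. Rps7 was at 952 and 1885 CPM (log2 ratio 0.98) and Rplp0 at 1686 and 3218 CPM (0.93). The cell makeup of this class differed between the libraries as given above. Over all cells of cluster 7, in this class or not, the members' median was 0.12. In the same way it was -0.15 in cluster 17 and 0.01 in cluster 20.

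In mitochondria-rich distal tubule-like cells 53 of 75 members were higher past the threshold (35.7% of all genes) and 0 lower (9.41%), with a median of 0.45, led by Rpl23 at 275 and 577 CPM (log2 ratio 1.04), Rps12 at 117 and 236 CPM (0.96) and Rpl13 at 395 and 696 CPM (0.80). In mitochondria-rich proximal tubule-like cells 56 of 75 were lower past it (33.1% of all genes) and 0 higher (10.4%), with a median of -0.46. Lowest there were Rpl30 (465 and 248 CPM, -0.88), Rpl9 (403 and 238 CPM, -0.74) and Rpl41 (705 and 423 CPM, -0.72). Mitochondrial UMIs were 67.9% and 61.4% of the total in the distal of these classes and 60.6% and 63.8% in the proximal, opposite in direction to the members in each. With the mitochondrial genes out of the total, the distal class had 21 members higher (18.7% of all non-mitochondrial genes) and 3 lower (26.6%). Its median was 0.20 (all genes -0.07). The proximal class then had 43 members lower (23.1%) and 0 higher (18.1%), with a median of -0.35 (all genes -0.06). The differences thus kept their direction and were smaller, the distal by more than the proximal.

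The mitochondria-rich distal class also differed in its cells. Slc12a3 cells of cluster 17 were 67.2% of its control cells and 42.4% of its exposed cells, and Slc12a1 cells of cluster 7 were 27.3% and 35.1%. Cells of clusters 20 and 19 made up 6.81% and 6.28% of the exposed class. The proximal class was alike in both libraries, with cluster 21 at 62.2% and 65.5% of it and cluster 6 at 37.8% and 33.8%. Within cluster 21 the members' median was -0.997 (all genes -0.28). In the class led by mitochondrial genes alone, 2 members were higher past the threshold (9.6% of all genes) and 6 lower (16.4%), of 72 measured. Rps26 was at 30.9 and 41.2 CPM (log2 ratio 0.33), and Rpl17 (38.9 and 15.8 CPM, -0.92), Rps29 (41.8 and 23.8 CPM, -0.62) and Rpl15 (61.7 and 38.04 CPM, -0.58) were lowest. These values rest on few molecules, between 10 (Rpl17) and 26 (Rps26) UMIs in the exposed library. Without mitochondrial genes the picture of this class was the opposite, with 46 members higher (59.9% of all non-mitochondrial genes) and 2 lower (7.59%). Its median was then 0.40, close to the 0.42 of all genes.

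**Figure D3:**
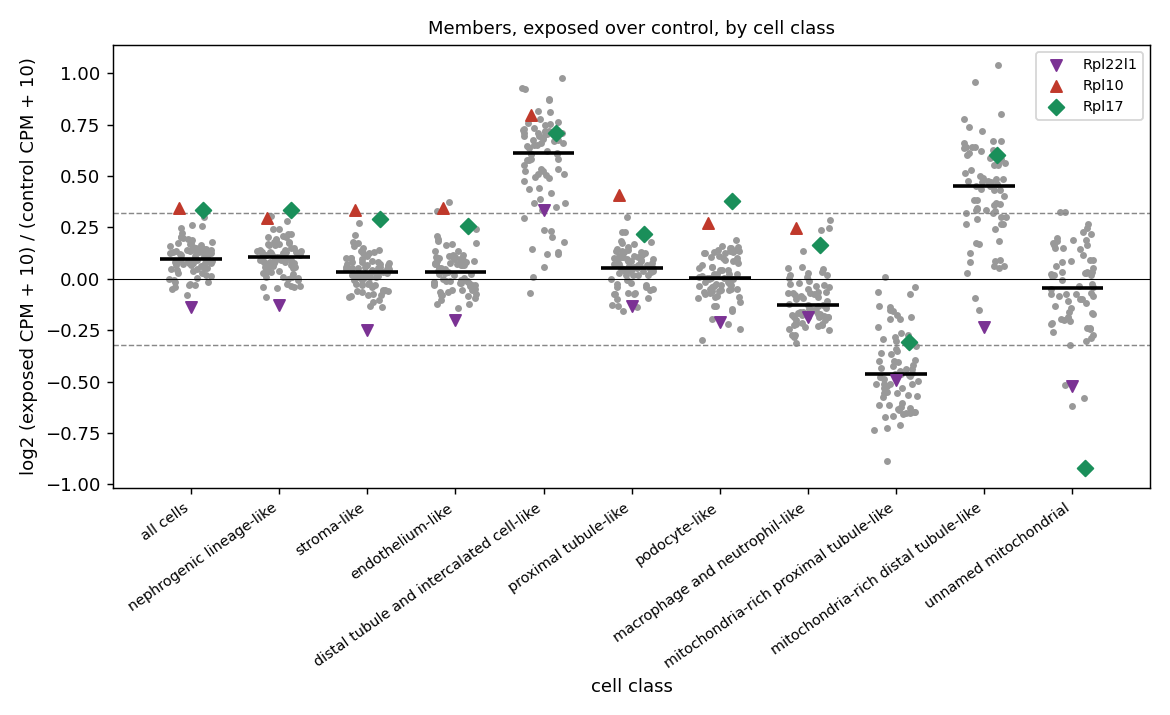
Log2 ratio of exposed over control CPM, with 10 added (y axis), of each measured member in all cells and in the 10 classes (x axis). Grey points are members, bars their median, dashed lines the threshold of 0.32 either way; Rpl22l1 (purple) lies below the median in every column, and the distal class has the highest median, 0.61.

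The make-up of the ribosomal protein mRNA pool also differed between cell types. It was read as each member's percent of all ribosomal protein UMIs in the 7 classes that are not mitochondria-rich, where 76 members had at least 50 UMIs in each class and library. The deviations of all 79 members from their own mean, those under 50 UMIs included, had a Pearson correlation of 0.92 between the libraries over 553 values. This is a description over genes and classes that share depth and class definitions. The least variable were Rpl23, Rps10, Rps18, Rps13 and Rpl6. Rpl23, a large subunit protein, ranged by 0.12 in control and 0.10 in exposed cells on the log2 scale.

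The most variable were Rps27l, Rpl21, Rpl23a, Rpl5 and Rps15. Rpl21, of the large subunit, made up 3.08% of the pool in podocyte-like cells of each library, against 1.11% and 1.13% in proximal tubule-like cells and 1.44% and 1.42% in nephrogenic lineage-like cells. Rps15, of the small subunit, was at 0.568% and 0.351% in the distal class and 0.502% and 0.451% in proximal tubule-like cells, against 0.244% and 0.226% in the nephrogenic class. Rpl23a, which lies at the tunnel exit, was at 0.37% and 0.285% in the distal class and 0.17% and 0.161% in the nephrogenic class. In CPM the order was not the same, since the tubule classes had low total shares: Rps15 was at 446 and 424 CPM in the distal class and 613.6 and 613.8 CPM in the nephrogenic class.

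**Figure D4:**
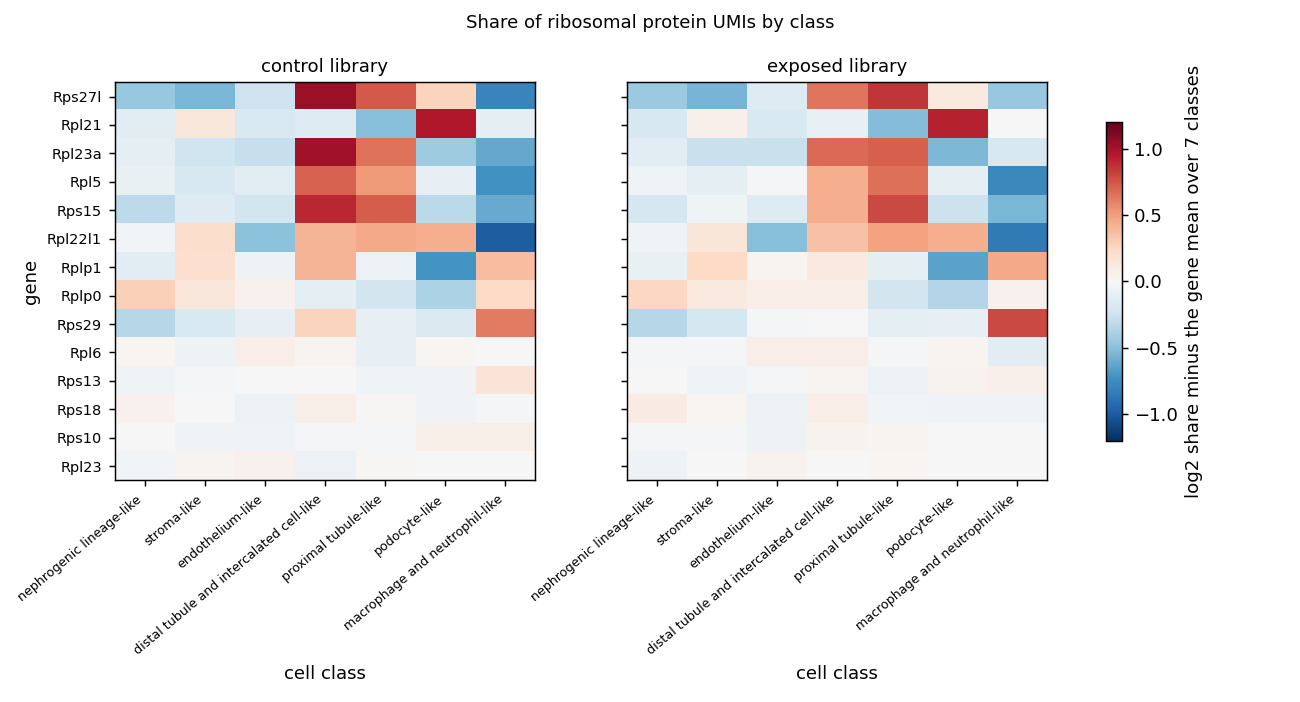
Log2 percent of ribosomal protein UMIs minus the gene's mean over 7 classes (colour) for 14 members (rows) by class (columns), in each library. Rpl21 stands out in podocyte-like cells of both libraries, and the 5 bottom rows, the least variable members, are nearly uniform.

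The stalk proteins, which recruit the translation factors, did not share a pattern. Rplp0, the base of the stalk, made up 2.84% and 3.01% of the pool in nephrogenic lineage-like cells and 1.79% and 1.98% in podocyte-like cells. Rplp1 was lowest in podocyte-like cells, at 0.645% and 0.697%, and was at 1.37% and 1.49% in macrophage and neutrophil-like cells. Rplp2, its partner, lay between 0.605% and 0.766% in the control over the 7 classes. Over all cells the log2 ratios of exposed over control were 0.20 for Rplp0, 0.18 for Rplp1 and 0.05 for Rplp2.

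Rpl5 and Rpl11 form the 5S particle that binds Mdm2 and so links ribosome assembly to p53. Rpl5 was at 616 CPM in control and 697 in exposed cells (log2 ratio 0.17), and Rpl11 at 2884 and 3044 (0.08). Rpl5 took 0.521% and 0.439% of the pool in the distal class and 0.193% and 0.19% in macrophage and neutrophil-like cells, and Rpl11 1.71% and 1.55% and 1.5% and 1.42% in the same classes. Of the 5 other genes measured in this list none was past the threshold in either direction. The highest were Trp53, which encodes p53, at 120 and 136 CPM (0.17), and its target Cdkn1a at 54.1 and 60.0 CPM (0.13), followed by the assembly factors Rrs1 (0.10) and Rpf2 (0.07).

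Of the paralog pairs, Rpl22l1 and Rpl22 were expressed at like levels. Rpl22l1 made up 54.0% of the pair's UMIs in the control (95% exact interval 53.7 to 54.3) and 50.2% in the exposed library (49.8 to 50.5). The share was lower in the exposed library in 8 of 10 classes and in 22 of 25 clusters, all read from the same 2 libraries. It was 58.1% and 54.0% in stroma-like cells, 52.5% and 48.7% in nephrogenic lineage-like cells, 61.3% and 55.7% in podocyte-like cells, 59.7% and 58.0% in proximal tubule-like cells and 42.2% and 37.9% in endothelium-like cells. Macrophage and neutrophil-like cells had the lowest shares, 33.9% and 35.9%. The exposed library was higher in cluster 19, led by Aqp2 (54.6% and 55.9%), in cluster 17 (63.4% and 64.1%) and in macrophage-like cluster 23 (36.2% and 37.2%).

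The share of Rps27l, a p53-responsive paralog of Rps27, varied more by cell type than by library. It was 26.0% of the pair in control and 25.1% in exposed cells. It was 17.7% and 18.9% in the Cited1 progenitor cluster 2, 43.1% and 42.5% in proximal tubule-like cells and 50.7% and 49.1% in the Slc12a3 cluster 17. The core gene differed more between these clusters than the paralog: Rps27 was at 2154 CPM in cluster 2 and 340 CPM in cluster 17 of the control, and Rps27l at 463 and 350 CPM. Rpl7l1, the paralog of Rpl7, made up 3.41% and 3.05% of its pair.

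**Figure D5:**
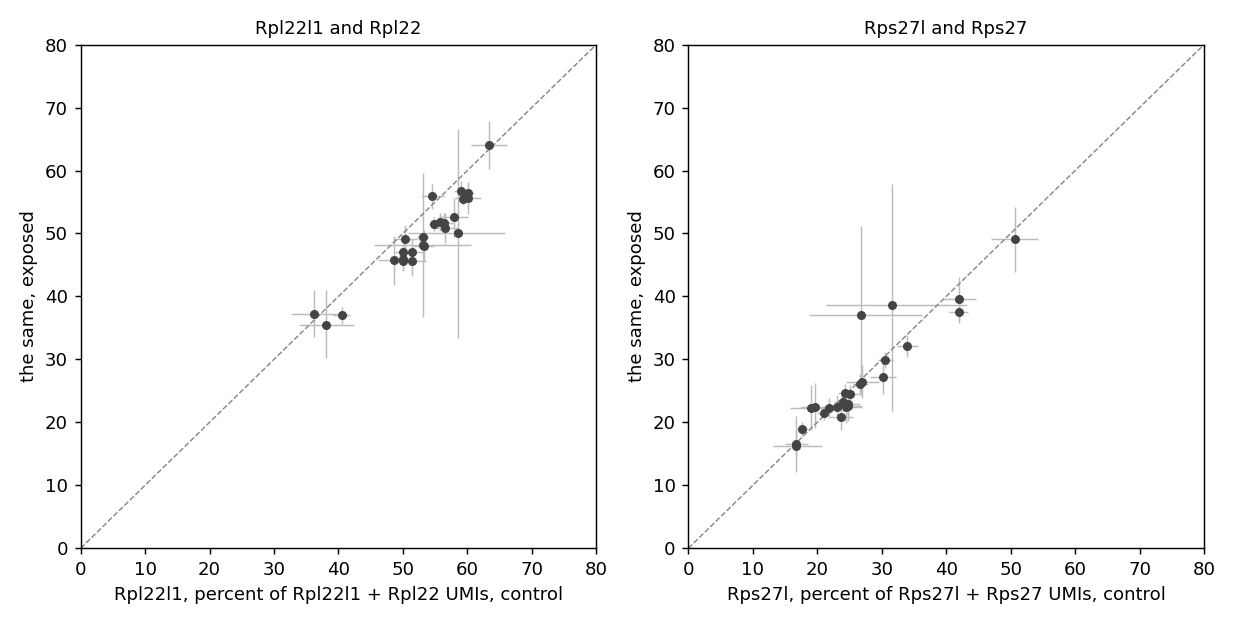
UMIs of the paralog as a percent of the pair in the control (x axis) and exposed (y axis) libraries for Rpl22l1 with Rpl22 and Rps27l with Rps27, 1 point per cluster in 25 clusters, with 95% exact intervals for counting error. Rpl22l1 lies below the dashed line of equal shares in 22 of 25 clusters, and Rps27l in 17.

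Other genes of translation and ribosome assembly were read from lists chosen by function. Over all cells 2 of 38 translation factors were higher past the threshold and 0 lower, with a median of 0.15. Of all genes tested 0.728% were higher and 0.795% lower by that much, with a median of 0.04. The same background holds for the other lists over all cells, and all these values keep mitochondrial genes in the total. The 2 factors were Eif3m, a subunit of the initiation factor eIF3, at 321 and 414 CPM (log2 ratio 0.35), and Eef1a1, which brings aminoacyl-tRNA to the ribosome, at 5050 and 6396 CPM (0.34). Eif2s1 (0.28), of the initiator tRNA complex, and Gnb2l1 (0.28), which encodes the ribosome-bound scaffold RACK1, followed. None of 49 ribosome biogenesis factors was past the threshold in either direction, with a median of 0.11. Highest were Dkc1, the pseudouridine synthase (0.27), Nob1, the nuclease that matures 18S RNA (0.26), Wdr43 (0.23) and Rsl1d1 (0.22).

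The same count was 0 for 12 RNA polymerase I genes (median 0.08; highest Cd3eap at 0.16, Polr1c at 0.14, Twistnb at 0.13 and Ubtf at 0.12) and for 22 mTORC1 and TOP regulators (median 0.05; highest Rragc at 0.15, Lamtor3 at 0.12, Rptor at 0.11 and Lamtor1 at 0.10). It was 0 for 8 genes of the Myc network (median 0.13), of which Myc was highest (25.5 and 31.9 CPM, 0.24), before Mycn (0.18), Max (0.14) and Mxd1 (0.13). The 75 mitochondrial ribosomal proteins had a median of 0.04 and none past the threshold, with Mrps22 (0.21), Mrpl9 (0.19), Mrps31 (0.19) and Mrpl18 (0.18) highest. For 15 cell cycle genes the median was 0.05 with none past it, and Mcm2 (0.21), Mcm6 (0.15), Mcm3 (0.14) and Mcm5 (0.12) were highest.

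Across cell types these lists differed in how they went with the ribosomal protein share. Over 24 clusters (cluster 8, led by mitochondrial genes, was left out), with mitochondrial genes out of the total, the Pearson correlation with the log2 summed level of translation factors was 0.93 in each library, and with ribosome biogenesis factors 0.85 in control and 0.86 in exposed cells. With cell cycle genes it was 0.56 and 0.53. With mTORC1 and TOP regulators it was -0.82 and -0.78, and with mitochondrial ribosomal proteins -0.27 and -0.14. Translation factors summed to 38499 CPM in cluster 2 of the control and 15926 CPM in cluster 17. These are descriptions over clusters that share a library, a depth and a total, in which the level of one list lowers that of the others.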

How the data were processed

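Trypsin was used to dissociate the kidneys, and cells were frozen before libraries were made with a 10x Genomics 3′ kit, per the labels' protocols; per the submitters' processing notes, Cell Ranger 2.2.0 and genome build mm10 were used. The deposited UMI counts per gene and cell, whole numbers made by the authors without normalization, were summed per class. The authors' deposited table of cells gives, per the file headers, the percent of mitochondrial UMIs, a hybrid doublet score and the cluster number. All cells were kept in the main values, and no doublet was removed. The sources used here do not give the authors' filters on cells or genes.

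CPM and shares were computed over the 8930 genes listed for both libraries (39200142 and 28213601 UMIs). Cells were also clustered jointly without the members and other genes of like name, 87 in all (scanpy 1.11.5, 2000 variable genes, 30 principal components, 15 neighbours, Leiden resolution 1). Clusters were named from fixed marker lists by at least 3 detected markers. Intervals are exact Clopper-Pearson for shares, Newcombe for differences and exact conditional binomial for ratios, at 95%, for counting error only; the ratio interval was tested on simulated data. Transcript lengths are from GENCODE vM21. Alternatives changed the denominator, mitochondria-rich cells, doublet scores, depth per cell (thinned to 2000 UMIs), classes, scaling, filter, pseudocount and weight of cells.

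Named were the 5 most and least abundant members, the 5 highest and lowest ratios over all cells, up to 3 each way past the threshold of 0.32 (log2) per class, the 5 most and least variable between classes, paralogs, stalk and 5S members, and up to 4 genes of other lists. Rps29 and Rpl15 met the rule in a class; the Rps6, Rps18 and Rpl15 windows were chosen after their letters were seen. The members and lists were chosen with earlier results of these data known. Some items that met the rule are not reported here.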

Additional observations from a re-analysis of the deposited data

Results flagged for a closer look

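In 3 classes the members' median log2 ratio of exposed over control stood apart from the other classes, with nearly all members on the same side. It was 0.61 in distal tubule and intercalated cell-like cells, 0.45 in mitochondria-rich distal tubule-like cells and -0.46 in mitochondria-rich proximal tubule-like cells. Whether these classes differ from the others was not tested, since each group is 1 library. Without mitochondrial genes the medians were 0.46, 0.20 and -0.35. Both distal classes held other cells in the exposed than in the control library, and the mitochondria-rich classes held 128 to 191 cells per library.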

How the results depend on the processing

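No paired analysis was possible because each group is 1 library, and no library could be left out for the same reason. Over all cells the members' median log2 ratio of 0.0965 was 0.0202 without mitochondrial genes, 0.0429 without cells over 25% mitochondrial UMIs, 0.0202 with both (chosen after seeing the data), 0.101 without doublet-like cells, 0.0813 in thinned cells and 0.0549 scaled by the median ratio. The count of members higher past the threshold, 2, was 0 without mitochondrial genes, without mitochondria-rich cells, with both, and scaled by the median ratio, and 1 in thinned cells. The difference in share of 1.55 points was 0.514, 0.735, 0.402 (both), 1.67 without doublet-like cells, 1.28 thinned and 1.15 as a mean over cells. The nephrogenic over podocyte-like ratio of shares, 2.04 in control and 2.18 in exposed cells, was 2.08, 2.06, 2.08 (both), 2.08 without doublet-like cells and 2.06 with joint classes in the control, and 2.14 without mitochondria-rich cells, 2.21 without doublet-like cells and 2.196 thinned in the exposed library. The difference in the Rps27l share of its pair over all cells, -0.894 points, was -0.28 in thinned cells, and that in nephrogenic lineage-like cells, -0.869 points, turned to 0.085 in thinned cells.

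Differences in share that turned were endothelium-like (-0.104 without mitochondrial genes, -0.136 with both), podocyte-like (-0.0613, -0.0245 with both, -0.0923 thinned, -0.509 joint classes, -0.154 mean over cells), proximal tubule-like (-0.259 thinned, -0.273 mean over cells) and mitochondria-rich proximal tubule-like (4.66 without mitochondria-rich cells, 5.83 with both). In the class led by mitochondrial genes alone a difference of -0.0131, whose interval for counting error held 0, became 4.32 without mitochondrial genes. The cause was not tested. Depth limits the mitochondria-rich classes most, where Rpl30, for example, had 165 and 103 UMIs in the proximal class.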
